A study of Mus musculus with 19 samples.

Results

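Whole cerebellum and whole neocortex of the adult mouse were compared for the microRNAs (miRNAs) bound to the protein Ago2. The comparison rests on 6 of the 19 libraries of the series, chosen by their labelled tissue, with 3 libraries of Cerebellum and 3 of Neocortex. All 6 came from mice at postnatal day 56, each from 1 tissue, and Ago2 was precipitated with the same anti-Ago2 antibody. The mice of the Cerebellum libraries had the background C57BL/6 & black swiss and those of the Neocortex libraries C57BL/6 & BALB/c, so strain and tissue cannot be told apart. The labels give neither an allele for these mice nor whether the 3 replicates were separate animals. The p-values therefore measure a spread between libraries, which may be technical. The main fit took this spread from all 19 libraries in 7 groups, neuron-class libraries included, and not from the 6 alone. RNA of 19 to 24 nt was sequenced, and each level below is a number of reads in every 1000000 reads of miRNA (RPM). RPM are shares of the miRNA pool: in whole tissue, fewer cells of a type and less miRNA per cell cannot be told apart.

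Ago2 is the effector protein of miRNA silencing. A hairpin transcript is cut to a duplex of a 5p and a 3p arm, 1 arm is loaded into an Argonaute protein, and the loaded arm finds its target mRNAs mainly by its seed, bases 2 to 8. Older names mark the arm thought to be the minor one with an asterisk. The cerebellum is made up mostly of granule neurons, with Purkinje cells as its output neurons, and the neocortex mostly of excitatory pyramidal neurons with several classes of inhibitory interneurons.

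The sequences of the miRNAs of largest change are given first because the fold differences below are read against them. RefSeq entries (GRCm38.p6) matched 388 of the 528 names, and the seed is in capitals in each line. The first 4 were higher in cerebellum and the last 4 lower.
miR-133b: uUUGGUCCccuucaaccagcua
miR-204: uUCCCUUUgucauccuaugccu
miR-484: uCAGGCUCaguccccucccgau
miR-194: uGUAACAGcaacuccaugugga
miR-873: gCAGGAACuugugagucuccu
miR-551b: gCGACCCAuacuugguuucag
miR-137: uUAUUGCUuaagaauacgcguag
miR-708: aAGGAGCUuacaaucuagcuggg

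The hairpins of these 8 miRNAs sit in different places of the genome (GRCm38.p6, hosts on the same strand from GENCODE M21). Mir133b (chr1:20682769-20682887, plus strand) lies in an exon of the noncoding gene Gm28653, and Mir204 (chr19:22750605-22750672, plus strand) in an intron of Trpm3, a cation channel gene. Mir484 (chr16:14159626-14159692, plus strand) had no annotated host, and miR-194 comes from 2 hairpins, Mir194-1 (chr1:185313319-185313385) and Mir194-2 (chr19:6264643-6264728). Of the 4 that were lower, Mir873a (chr4:36668510-36668586, minus strand) lies in an intron of Lingo2, Mir551b (chr3:29416823-29416920, plus strand) in an intron of Egfem1 and Mir708 (chr7:96249424-96249532, plus strand) in an intron of Tenm4. Mir137 (chr3:118433857-118433929, plus strand) lies in an exon of the noncoding transcript Gm26871.

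Members of 3 families follow: in miR-15/16 and miR-99/100 members with 1 seed were called in both directions, and in miR-29 all were lower. The miR-15/16 family carries the seed AGCAGCA, the miR-29 family AGCACCA and the miR-99/100 family ACCCGUA.
miR-16: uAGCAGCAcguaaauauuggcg
miR-195: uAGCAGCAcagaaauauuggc
miR-497: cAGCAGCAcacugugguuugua
miR-15a: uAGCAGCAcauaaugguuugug
miR-15b: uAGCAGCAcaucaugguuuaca
miR-322: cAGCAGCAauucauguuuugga
miR-29a: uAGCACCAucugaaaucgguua
miR-29b: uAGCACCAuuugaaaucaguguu
miR-29c: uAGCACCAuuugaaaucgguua
miR-99a: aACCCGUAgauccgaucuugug
miR-100: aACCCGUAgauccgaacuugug
miR-99b: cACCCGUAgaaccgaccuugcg

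The 6 libraries held 1229834 to 10798553 miRNA reads, with 1229834 to 3292571 in Cerebellum and 2149027 to 10798553 in Neocortex. For 3 reads, used as the detection floor, this meant 0.911 to 2.439 RPM in Cerebellum and 0.278 to 1.396 RPM in Neocortex. Libraries detected 456 to 510 miRNA names. Counting alone did not account for the spread of replicates: chi-square divided by its degrees of freedom was 34.2 to 39.2 for pairs of Cerebellum libraries and 242.4 to 693 for pairs of Neocortex libraries. miR-124, the most abundant miRNA of neurons, led all 6 libraries, as brain tissue should show. A list of miRNAs from the Hox clusters was not analysed here.

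The first comparison took all names together. In limma with Benjamini-Hochberg adjustment, 290 of 522 tested miRNAs (55.6%) were called at an adjusted p under 0.05. Of these, 102 (19.5% of those tested) were higher in cerebellum and 188 (36.0%) lower. With the 6 libraries fitted alone 264 were called, 249 of them in the same direction as in the main fit. The median log2 change over all 522 was -0.40. With factors that set the median ratio of all miRNAs level, the median was -0.15 and the split was 137 higher and 154 lower; with DESeq2 on recovered reads it was 132 and 150. A difference of at least 2-fold was called for 232 miRNAs (44.4%), 77 higher in cerebellum (14.8%) and 155 lower (29.7%). The 3 libraries of 1 tissue all exceeded the 3 of the other for 317 miRNAs (60.7%), and 272 (52.1%) were also called. Among the 160 miRNAs averaging 100 RPM or more, 116 (72.5%) were called, of which 48 (30.0%) were higher and 68 (42.5%) lower.

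**Figure D1:**
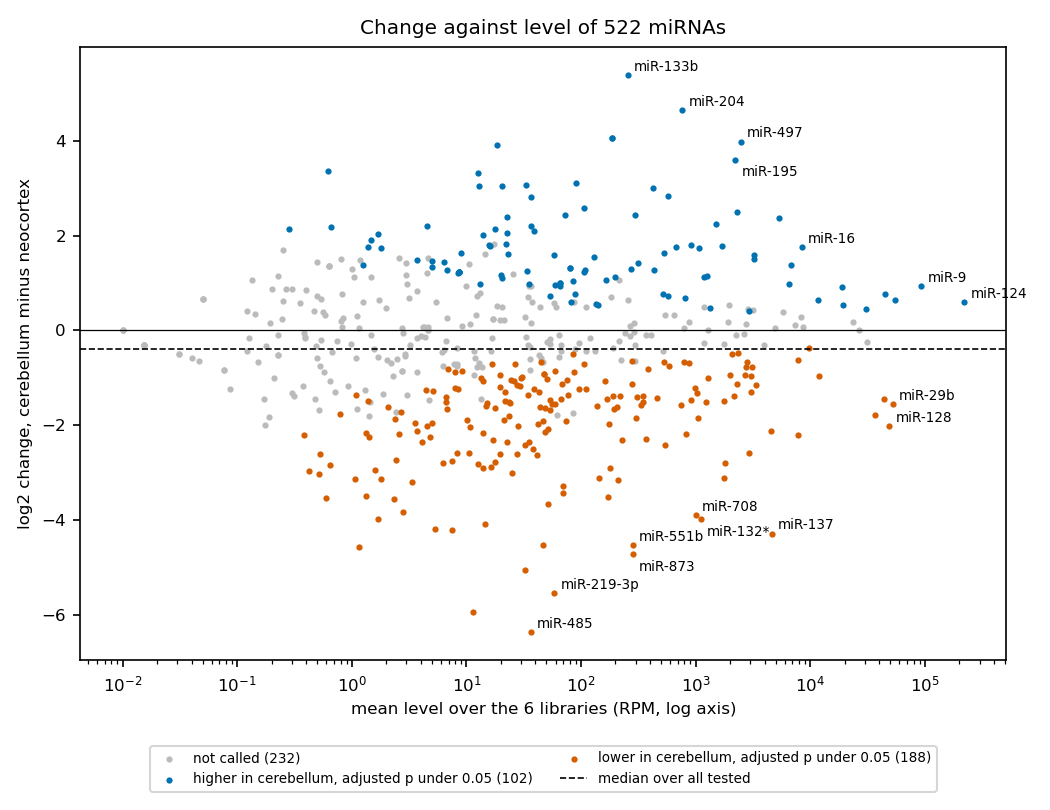
Each point is 1 of 522 miRNAs, with its mean level over the 6 libraries in RPM on a log axis (3 names under 0.01 RPM are drawn at 0.01) and its fitted log2 change, cerebellum minus neocortex. The dashed line is the median of -0.40; miR-133b (5.39) lies highest and miR-485 (-6.36) lowest.

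miR-133b, first described in muscle and also found in brain, had the highest log2 change among called miRNAs of at least 100 RPM. Its level was 533, 531 and 433 RPM in the 3 Cerebellum libraries and 10.7, 16.1 and 9.35 RPM in the 3 Neocortex libraries, a 42.0-fold difference (log2 change 5.39, SE 0.23, limma adjusted p = 1.38e-13). The groups were far apart, with the lowest Cerebellum library well above the highest of Neocortex. miR-133a, its close relative, stood at 531, 530 and 431 RPM in Cerebellum, almost the values of miR-133b, and at 99.1, 83.7 and 94.1 RPM in Neocortex. The pair is nearly identical in sequence, so reads may have been shared between both names, and their separate levels are uncertain. miR-1, another miRNA of muscle, differed the other way, with 22.8, 32.2 and 29.5 RPM in Cerebellum and 306, 141 and 329 RPM in Neocortex (log2 change -3.12, SE 0.25, adjusted p = 1.44e-09).

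miR-204, a miRNA of choroid plexus and retinal pigment epithelium, stood at 1730, 1256 and 1430 RPM in Cerebellum and at 57.2, 50.3 and 67.6 RPM in Neocortex. The difference was 25.1-fold (log2 change 4.65, SE 0.29, adjusted p = 3.83e-11), again without overlap. miR-486, abundant in red blood cells and muscle, stood at 372, 331 and 351 RPM against 24.2, 19.5 and 20.0 RPM (16.5-fold). miR-3107 had nearly the same values in every library, and the 2 names count 1 measurement. Another miRNA of red blood cells, miR-451, did not follow: it stood at 2019, 2421 and 1885 RPM in Cerebellum and at 1432, 2208 and 3652 RPM in Neocortex, and the groups overlapped (log2 change -0.11, 95% interval -0.72 to 0.51).

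The other miRNAs of the 12 highest changes included miR-484, with 833, 814 and 637 RPM in Cerebellum and 69.8, 106 and 112 RPM in Neocortex (8.03-fold, adjusted p = 1.68e-10). miR-194 and miR-192, which share a hairpin cluster on chromosome 19 and are best known from liver and gut, were 7.10-fold and 5.95-fold higher. miR-194 had 992, 1097 and 891 RPM in Cerebellum and 121, 104 and 215 RPM in Neocortex, and miR-192 had 215, 171 and 161 against 34.0, 26.4 and 31.1 RPM. For both, every Cerebellum library exceeded every Neocortex library. miR-320, which is made without Drosha, stood at 3346, 4462 and 3879 RPM against 976, 493 and 678 RPM (5.62-fold, adjusted p = 2.92e-08).

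**Figure D2:**
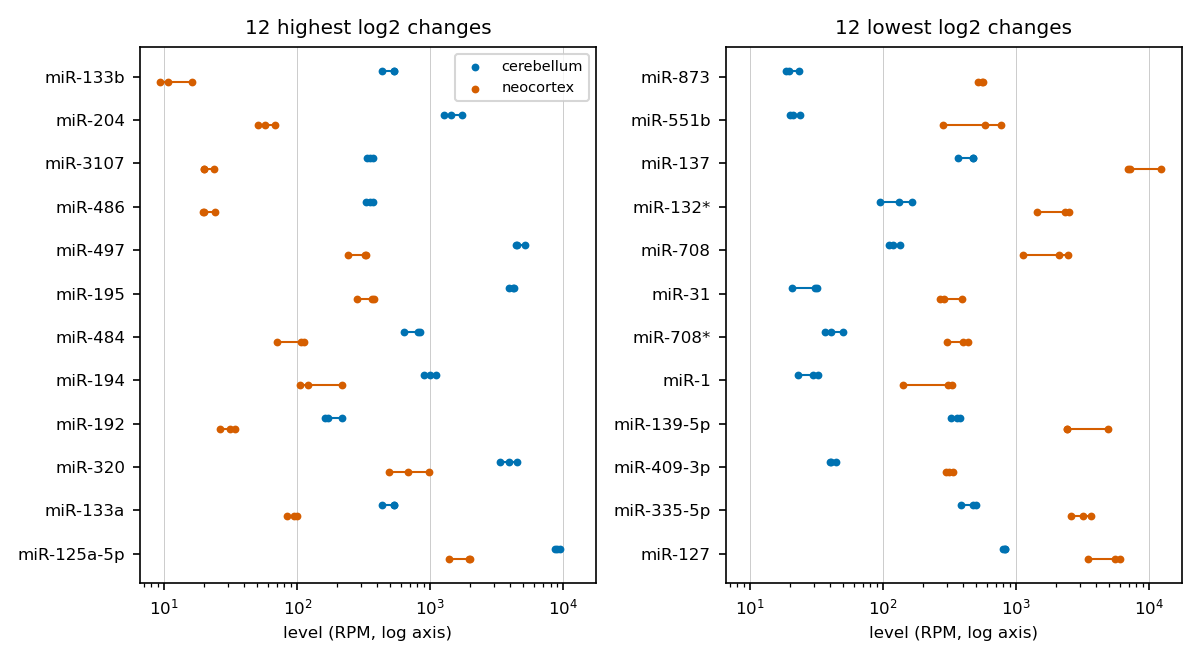
Points are the levels in RPM (log axis) of single libraries and lines join the 3 libraries of a tissue, for the 12 highest and 12 lowest log2 changes among called miRNAs averaging 100 RPM or more. The Cerebellum and Neocortex libraries do not overlap in any of the 24, which the choice of these miRNAs required.

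Among miRNAs lower in cerebellum, miR-873 had the lowest log2 change of those with at least 100 RPM. It stood at 18.7, 23.4 and 19.5 RPM in Cerebellum and at 563, 552 and 513 RPM in Neocortex, a 26.4-fold difference (log2 change -4.72, SE 0.19, adjusted p = 1.07e-13), with close replicates in both tissues. miR-551b stood at 23.6, 20.0 and 21.1 RPM in Cerebellum and spread more in Neocortex, at 281, 579 and 770 RPM (log2 change -4.53, SE 0.28, adjusted p = 3.83e-11). miR-137, a miRNA with known roles in neuronal maturation and synapses, was more abundant, at 474, 362 and 472 RPM in Cerebellum against 12291, 6888 and 7204 RPM in Neocortex (19.6-fold, adjusted p = 7.95e-12). Its minor arm miR-137* was seen at 0 to 1.11 RPM in Cerebellum, at or under the 3-read floor, and at 19.1, 23.9 and 24.7 RPM in Neocortex.

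Both arms of the miR-708 hairpin were lower in cerebellum. miR-708 stood at 118, 133 and 110 RPM against 1129, 2105 and 2429 RPM (14.9-fold), and miR-708* at 36.6, 40.7 and 49.5 against 400, 431 and 299 RPM (8.86-fold). Its seed relative miR-28, from an unlinked hairpin, differed the other way, with 209, 194 and 172 RPM in Cerebellum and 39.1, 88.3 and 81.4 RPM in Neocortex (log2 change 1.54, SE 0.28, adjusted p = 0.0001). The sum of reads with their shared seed AGGAGCU followed the more abundant miR-708, at 312 ± 26.2 against 1957 ± 702 RPM (SD, n = 3 libraries each).

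miR-31, known from epithelia, stood at 30.9, 31.6 and 20.6 RPM in Cerebellum and at 287, 266 and 393 RPM in Neocortex (11.4-fold). miR-139-5p, encoded in an intron of the phosphodiesterase gene Pde2a, stood at 375, 359 and 323 RPM against 2401, 2406 and 4853 RPM (8.64-fold), with the third Neocortex library well above the others. miR-335-5p, in an intron of the imprinted gene Mest, stood at 387, 469 and 500 RPM against 2579, 3185 and 3626 RPM (6.90-fold). In all 3 cases the tissues did not overlap.

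miRNAs of the most abundant class were compared next, since they make up most of the loaded pool. The 10 most abundant names held 67.36% ± 1.17 of reads in Cerebellum and 65.59% ± 2.57 in Neocortex (SD, n = 3 libraries each), and 7 names stood in both groups of 10. miR-124 held 24.04% to 28.04% of reads in the Cerebellum libraries and 14.56% to 21.84% in Neocortex (log2 change 0.59, SE 0.16, adjusted p = 0.00342), without overlap; with the 6 libraries fitted alone the adjusted p was 0.0553. miR-9, which acts in neural progenitors and is kept in neurons, held 12.17% ± 1.13 against 6.4% ± 0.65 (adjusted p = 1.08e-05). miR-128, a neuronal miRNA encoded in introns of R3hdm1 and Arpp21, ranked 2 in Neocortex with 7.85% ± 1.21 and 13 in Cerebellum.

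miR-22, from an exon of the noncoding host Mir22hg, was also lower in this abundant class. It stood at 14356, 18517 and 16440 RPM in Cerebellum and at 49363, 53478 and 66553 RPM in Neocortex, where it ranked 6 (log2 change -1.78, SE 0.17, adjusted p = 1.82e-08). miR-26a, encoded in the phosphatase genes Ctdspl and Ctdsp2, ranked 4 in Cerebellum with 5.66% ± 0.32 and 8 in Neocortex with 3.41% ± 0.95 (adjusted p = 0.00232). miR-181a, a miRNA of lymphocytes and neurons, ranked 9 and 15, with 2.48% ± 0.30 in Cerebellum and a log2 change of 0.92 (SE 0.19, adjusted p = 0.000279). Among the 76 miRNAs with at least 1000 RPM, 56 (73.7%) were called, of which 24 (31.6%) were higher and 32 (42.1%) lower in cerebellum.

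Several abundant miRNAs were measured closely and were not called. miR-101b, encoded in an intron of Rcl1, stood at 2445, 2748 and 2507 RPM in Cerebellum and at 2515, 2781 and 2805 RPM in Neocortex (log2 change -0.07, 95% interval -0.36 to 0.21). miR-126-3p, the main miRNA of endothelium, stood at 2882 ± 161 against 2656 ± 571 RPM, with an interval of -0.18 to 0.46. For let-7g the interval was -0.18 to 0.52, for miR-381 -0.14 to 0.51, for miR-154 -0.54 to 0.02 and for miR-9* -0.51 to 0.02. These intervals bound a possible difference but do not show that the levels were equal. Under the median-ratio factors let-7g, miR-126-3p and miR-381 were called higher in cerebellum, and miR-101b, miR-154 and miR-9* changed sign without a call.

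Families of shared seed were summed to ask whether the supply of a seed differed. The sums cover names with a RefSeq sequence, which held 70.0% of Cerebellum reads and 79.2% of Neocortex reads. Among the names left out are miR-124, miR-30b and miR-30d, all called higher in cerebellum. Of 315 seeds tested, 197 (62.5%) were called, 52 (16.5%) higher in cerebellum and 145 (46.0%) lower, and 208 (66.0%) did not overlap between tissues. The split depends in part on the matching, which covered 67 of 102 names called higher but 163 of 188 called lower. Seed sums were not fitted with the median-ratio factors. Of 44 seeds carried by 2 or more names, 9 had members called higher and none called lower, 18 had members called lower and none called higher, 7 had members called in both directions, and 10 had no called member.

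The miR-15/16 family, known for targets in the cell cycle, held 2.39% ± 0.07 of reads in Cerebellum and 0.55% ± 0.08 in Neocortex (log2 change of the sum 2.12, SE 0.21, adjusted p = 5.40e-08). miR-497 stood at 4445, 5156 and 4429 RPM in Cerebellum and at 325, 328 and 240 RPM in Neocortex (15.8-fold, adjusted p = 1.83e-12). Its neighbour miR-195 (Mir497 at chr11:70234717-70234800 and Mir195a at chr11:70235042-70235135, both plus strand) stood at 3911, 4172 and 4249 RPM against 283, 377 and 363 RPM (12.1-fold). Both were far above every Neocortex library. miR-16, the most abundant member, stood at 12744, 12652 and 13829 RPM against 3187, 4088 and 4377 RPM (3.39-fold), miR-15a at 1738 ± 86.5 against 792 ± 133 RPM (2.21-fold) and miR-15b at 225 ± 49.5 against 108 ± 30.9 RPM (2.09-fold). miR-322, from a cluster on the X chromosome, was the member lower in cerebellum, at 41.5, 41.0 and 26.7 RPM against 81.9, 98.6 and 114 RPM (log2 change -1.44, adjusted p = 0.0407). That call was lost when any 1 of the 6 libraries was left out, with adjusted p from 0.0555 to 0.121. miR-195 and miR-16 differ at 2 of the 21 bases compared from the 5′ end, and other pairs of the family at 4 to 11.

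The miR-29 family, whose members rise as neurons mature, differed the other way as a whole, with 5.79% ± 0.76 of reads in Cerebellum and 15.78% ± 1.99 in Neocortex (adjusted p = 3.94e-08). miR-29b stood at 22411, 30344 and 26779 RPM against 96147, 66676 and 72300 RPM (2.94-fold), miR-29a at 20417, 25987 and 23877 against 66555, 72359 and 52411 RPM (2.71-fold), and miR-29c at 7193, 8752 and 7962 against 14911, 19053 and 13128 RPM (1.95-fold). In each, all 3 Neocortex libraries exceeded all 3 of Cerebellum. miR-29a and miR-29c differ at 1 of 22 bases, so their separate levels may share reads. Of 7 names of the family tested, minor arms included, 6 were lower.

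The let-7 family, which promotes differentiation, held 20.65% ± 0.91 of reads in Cerebellum and 16.01% ± 2.27 in Neocortex (log2 change of the sum 0.38, SE 0.15, adjusted p = 0.0367). Of its 9 main arms, let-7a, let-7b, let-7c and let-7d were higher in cerebellum, with log2 changes of 0.45 to 0.63. The call of let-7a was lost with the 6 libraries alone (adjusted p = 0.0715) and without Cerebellum replicate 1 or 3 or Neocortex replicate 1 or 2 (0.0702 to 0.108). miR-98 was lower at 602 against 970 RPM (log2 change -0.67, adjusted p = 0.00307). let-7e, let-7f, let-7g and let-7i were not called, with log2 changes of 0.01 to 0.17. Under the median-ratio factors and DESeq2 no let-7 name was called lower, and 15 and 14 of 21 names were called higher in place of 10. Members differ at as few as 1 of the bases compared.

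The miR-99/100 family did not differ as a sum, with 1.29% ± 0.06 in Cerebellum and 1.5% ± 0.22 in Neocortex (log2 change -0.21, adjusted p = 0.174), but its members did. miR-99b stood at 2587, 2561 and 2318 RPM against 600, 590 and 410 RPM (4.73-fold higher, adjusted p = 2.59e-09). miR-100 stood at 2033, 1921 and 2086 RPM against 3749, 3641 and 3034 RPM (1.72-fold lower, adjusted p = 2.59e-05). miR-99a, which differs from miR-100 at 1 of 22 bases, stood at 8397 ± 753 against 11023 ± 1699 RPM and its groups overlapped (adjusted p = 0.0486). That call was lost without any 1 library other than Neocortex replicate 3 (adjusted p = 0.0506 to 0.156) and with the median-ratio factors (0.739).

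Of the other seeds shared by several names, the seed of miR-130a, miR-301a and miR-130b, a family known from blood vessels and development, stood at 2807 ± 341 against 872 ± 154 RPM (3.23-fold higher in cerebellum). The seed of miR-34a and miR-34b-5p, which p53 induces, stood at 1048 ± 120 against 331 ± 143 RPM (3.38-fold higher). The seed of miR-221 and miR-222 stood at 714 ± 81.7 against 2085 ± 292 RPM (2.92-fold lower), and that of miR-103 and miR-107, encoded in introns of the pantothenate kinase genes, at 8432 ± 900 against 13442 ± 2354 RPM (1.58-fold lower). The 4 miR-181 members differed among themselves: miR-181a was higher, miR-181b lower (1726 ± 140 against 2452 ± 89.3 RPM, adjusted p = 0.00387) and miR-181c and miR-181d not called. With the median-ratio factors miR-181b kept its sign without a call (adjusted p = 0.317). miR-181c was called higher with these factors (log2 change 0.76, adjusted p = 0.0035) and with DESeq2 (0.76, adjusted p = 0.00145). It was also called among names averaging at least 10 RPM (0.0481) and without Cerebellum replicate 1 (0.0287) or Neocortex replicate 3 (0.0136).

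**Figure D3:**
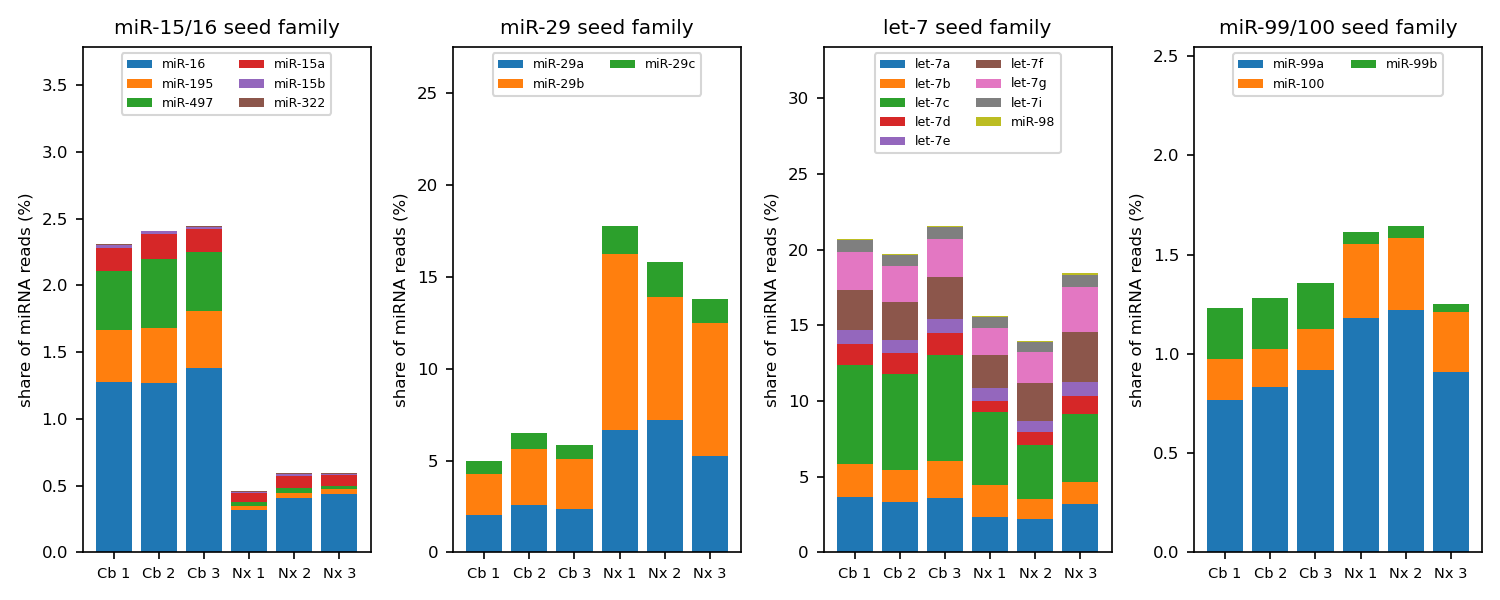
Stacked bars give the share of miRNA reads (%) of each family member in each library, with Cb for Cerebellum and Nx for Neocortex and their replicate numbers. The miR-15/16 bars are higher in every Cb library, the miR-29 bars in every Nx library, and miR-99b shrinks from Cb to Nx while miR-99a and miR-100 do not.

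Hairpins that lie next to each other in the genome are often made from 1 primary transcript, so their members were set side by side. Of 20 clusters with at least 2 names at 10 RPM or more, 7 had called names higher in cerebellum and none lower, 10 had called names lower and none higher, 2 had both, and 1 had no called name. Over all tested names 55.6% were called, 19.5% higher and 36.0% lower. Among the 10, the miR-181c cluster rested on miR-181c* alone and the miR-425 cluster on miR-191* alone. miR-181c* lost its call with the median-ratio factors (adjusted p = 0.102) and DESeq2 (0.123). miR-191* lost its own with the 6 libraries alone (0.0715) and the median-ratio factors (0.0636). The cluster counts leave out names under 10 RPM, of which miR-195* (0.185 against 3.21 RPM) was called lower in a cluster counted among the 7. miR-16-1* (0.558 against 1.59 RPM) was called lower too. Its hairpin lies on chromosome 14, apart from the chromosome 3 cluster of miR-15b with the other miR-16 hairpin. Each of the 2 clusters with both directions had 1 name called lower, with an adjusted p just under the threshold. The cluster of miR-99b, let-7e and miR-125a on chromosome 17, within Spaca6, was one of the 2. miR-99b and miR-125a-5p (8900, 9481 and 8583 RPM against 1983, 1944 and 1383 RPM, 5.14-fold) were higher in cerebellum, while let-7e between them stood at 8865, 8638 and 9204 RPM against 8594, 7533 and 9328 RPM (log2 change 0.07, 95% interval -0.31 to 0.46). Its name called lower was miR-125a-3p (54.5, 96.3 and 66.2 RPM against 105, 110 and 84.5 RPM, adjusted p = 0.0468), whose groups overlapped. That call was lost with the 6 libraries alone (adjusted p = 0.135), with the median-ratio factors (0.44), edgeR (0.093) and DESeq2 (0.586), and without Cerebellum replicate 1 or 3 or Neocortex replicate 1 or 2 (0.108 to 0.236). The paralogous group of miR-99a and let-7c was the other, with let-7c higher (log2 change 0.63) and miR-99a lower (-0.38), a call that most alternatives lost. let-7c is made on chromosome 15 as well as beside miR-99a on chromosome 16. The other name called higher, let-7c-2*, is named for the chromosome 15 hairpin. Its values were nearly those of let-7a-1* from chromosome 13 (139, 114 and 85.1 RPM in Cerebellum for both), so reads may have been shared. Neither let-7c nor let-7c-2* can be assigned to the chromosome 16 cluster. The call of let-7c-2* was lost without Cerebellum replicate 1, Neocortex replicate 1 or Neocortex replicate 3 (adjusted p = 0.0765, 0.0852 and 0.0535).

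Among clusters lower in cerebellum, the hairpins of miR-132 and miR-212 (chr11:75173682-75173747 and chr11:75173388-75173478, plus strand) are known to respond to CREB and neuronal activity. Their 4 arms were all lower. miR-132* stood at 165, 132 and 95.1 RPM in Cerebellum and at 1434, 2338 and 2503 RPM in Neocortex (15.9-fold, adjusted p = 3.83e-11), and miR-132 at 89.4, 84.7 and 58.4 against 386, 362 and 400 RPM (5.01-fold). miR-212-5p stood at 12.2 ± 0.624 against 126 ± 53.6 RPM and miR-212-3p at 7.32, 17.6 and 11.1 against 71.7, 71.7 and 67.6 RPM. The 8 names of the cluster from miR-433 to miR-127 on chromosome 12 were lower as well, from miR-127 (829, 825 and 790 against 5484, 6070 and 3458 RPM, 5.97-fold) to miR-434-3p (1.59-fold). Of these, miR-434-3p lost its call with the 6 libraries alone (adjusted p = 0.0547) and with the median-ratio factors (0.0736), and miR-433 with the median-ratio factors (0.0922) and DESeq2 (0.102). The clusters of miR-23b with miR-27b and of miR-23a with miR-27a, known from vessels and metabolism, were lower at log2 changes of -1.90 to -0.82. Without Cerebellum replicate 3 or Neocortex replicate 1, miR-27a was no longer called (adjusted p = 0.0639 and 0.105). Its call was also lost with the median-ratio factors (0.118) and DESeq2 (0.0704).

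The neighbours miR-144 and miR-451, expressed in the red cell lineage, formed the cluster with no called name. The clusters higher in cerebellum included miR-30d with miR-30b (8642 ± 903 against 4519 ± 1517 RPM and 4816 ± 302 against 1672 ± 631 RPM) and miR-34b with miR-34c, miRNAs of ciliated cells. In the X-linked cluster from miR-532 to miR-188, 3 of 8 names were higher. One of them, miR-362-5p (160 against 109 RPM, adjusted p = 0.0227), lost its call without Cerebellum replicate 2 or 3 or Neocortex replicate 1 or 2 (0.0543 to 0.0916). The largest change was that of miR-532-3p, at 42.3, 41.6 and 29.5 RPM against 6.98, 9.52 and 5.28 RPM (log2 change 2.39, adjusted p = 1.67e-05). Its partner arm miR-532-5p stood at 243, 268 and 248 against 309, 246 and 279 RPM, and the groups overlapped.

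miRNAs were also grouped by the cell types and processes they are known from. Beside the shares over all tested names (19.5% higher, 36.0% lower, median -0.40), the neuron-enriched list had 5 of 30 names higher and 16 lower, with a median log2 change of -1.15. Among its 20 names averaging at least 10 RPM, 6 were higher and 9 lower with a median of -0.51, close to the median of -0.44 and the 145 of 320 lower over all miRNAs at that level. With the median-ratio factors 8 of 30 were higher and 15 lower. Those higher were miR-124, miR-9, and the 3 names miR-129-1-3p, miR-129-2-3p and miR-129-5p, with miR-129-2-3p at 9637, 10779 and 9021 RPM against 2679, 4721 and 4266 RPM (2.59-fold). Those lower included miR-128, miR-137, miR-138 (2102 ± 461 against 4666 ± 1105 RPM), miR-153 (1433 ± 85.1 against 3174 ± 581 RPM) and miR-7a. miR-218 was not called, at 3597 against 2711 RPM (log2 change 0.42, adjusted p = 0.0725). The summed level of the list was 45.31% ± 2.02 of reads in Cerebellum and 37.88% ± 3.97 in Neocortex, with miR-124 alone at 26.27% and 17.7%.

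The activity-responsive list had 5 of 6 names lower (median -2.48): the 4 arms of miR-132 and miR-212, and miR-134, a miRNA of dendrites, at 26.8, 24.0 and 24.5 RPM against 93.1, 90.0 and 62.0 RPM. The Dlk1-Dio3 list, an imprinted domain on chromosome 12 with a large miRNA cluster, had 62 of 93 names lower and 1 higher (median -1.30), and its sum was 2.06% ± 0.10 against 5.62% ± 0.41 of reads. miR-376a gave the most of these reads, with 2358, 3036 and 3037 RPM in Cerebellum and 13455, 14596 and 10871 RPM in Neocortex (4.61-fold). miR-409-3p had 39.8, 40.7 and 44.5 against 312, 297 and 335 RPM (7.53-fold, adjusted p = 2.20e-11), and miR-485 had 2.44, 2.43 and 0 against 66.1, 68.6 and 78.2 RPM. The name called higher was miR-299*, at 129, 85.3 and 79.0 against 45.6, 65.9 and 82.9 RPM, where the groups overlapped. It was not called with the 6 libraries alone, nor without Cerebellum replicate 1, Cerebellum replicate 2 or Neocortex replicate 2. Median-ratio factors gave 54 lower and 3 higher with a median of -0.99.

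**Figure D4:**
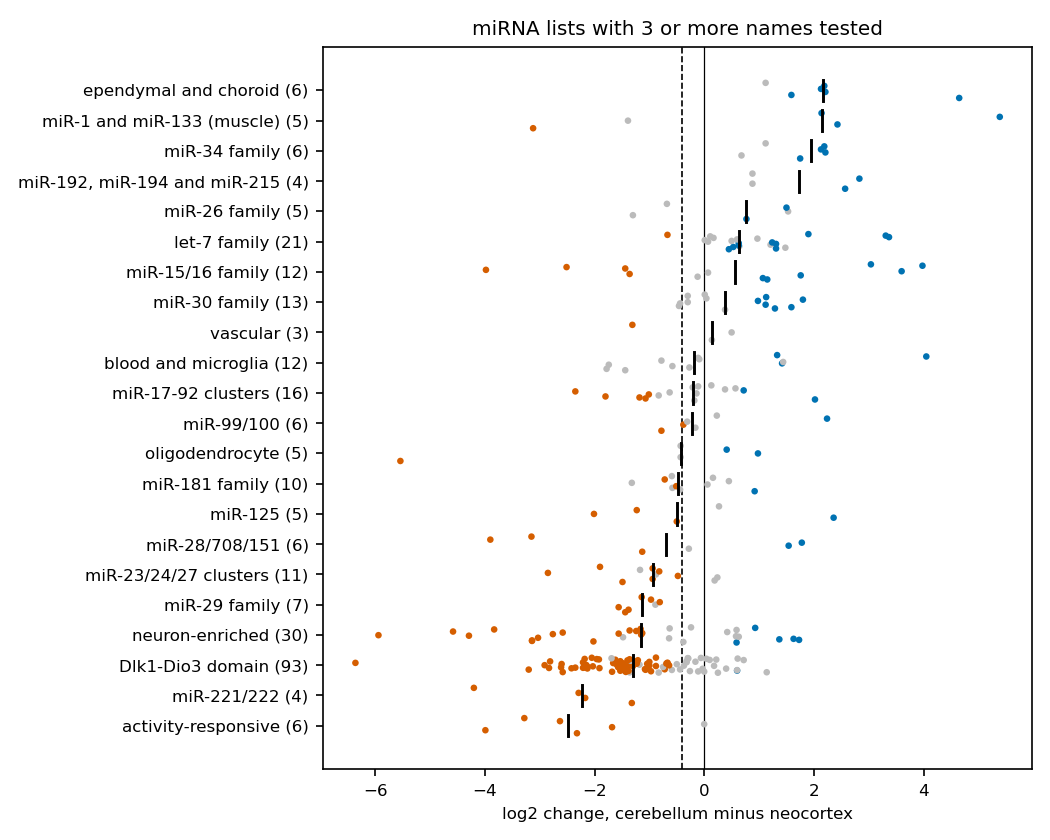
Each point is the fitted log2 change of 1 name, in blue where called higher in cerebellum, orange where called lower and grey where not called, for lists with 3 or more names tested (number in parentheses). Black ticks are list medians and the dashed line is the median of -0.40 over all 522 names.

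Markers of other cells of the tissue moved unequally. The ependymal and choroid list had 5 of 6 names higher in cerebellum (median 2.16), and its sum stood at 0.146% to 0.193% of reads in the Cerebellum libraries against 0.010% to 0.012% in Neocortex. Besides miR-204 these were miR-204*, miR-34b-5p (29.1 ± 6.1 against 6.58 ± 1.54 RPM), miR-34b-3p and miR-34c (62.6, 59.8 and 56.7 against 10.2, 10.5 and 20.6 RPM). How far cells of the choroid plexus or ventricle lining in the dissected tissue contribute to the miR-204 result was not tested. The blood and microglia list had 3 of 12 names higher (miR-150 and both arms of the miR-486 hairpin, miR-486 and miR-486*). Within it no name was called lower in the main fit. With the 6 libraries alone 4 names were called lower, with a pseudocount of 10 also 4, and with edgeR on recovered reads 3. The sum of the list ranged from 0.288% to 0.335% in Cerebellum and from 0.194% to 0.420% in Neocortex. The part of blood in the miR-486 result was not tested; miR-451, miR-144 and miR-223 were not called.

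Of the vascular list, miR-143, a miRNA of smooth muscle, was lower (1800, 1744 and 1732 against 4428, 4694 and 3984 RPM, log2 change -1.31, adjusted p = 1.20e-06), while the 2 arms of miR-126 were not called. With the median-ratio factors and with DESeq2 both arms were called higher, and the median of the list was 0.44 in place of 0.14. The oligodendrocyte list had 2 of 5 names higher and 1 lower, with a median of -0.43 that was 0.40 under DESeq2. miR-338-3p was called higher (3335 ± 85.5 against 2550 ± 603 RPM, adjusted p = 0.0413) and lost its call without Cerebellum replicate 1, 2 or 3 or without Neocortex replicate 2 or 3 (adjusted p = 0.0583 to 0.245). Its call was also lost with the 6 libraries alone (0.107), TMM factors (0.0524) and edgeR (0.0765). The 2 arms of miR-219, a miRNA of oligodendrocyte maturation, differed in opposite directions. miR-219-5p stood at 62.6, 46.8 and 32.2 RPM in Cerebellum and at 23.3, 19.3 and 27.5 RPM in Neocortex (adjusted p = 0.0206, and 0.105 without Cerebellum replicate 1, 0.0506 without Cerebellum replicate 2 and 0.0754 without Neocortex replicate 2). miR-219-3p stood at 4.07, 1.82 and 1.67 against 123, 85.4 and 137 RPM (log2 change -5.54, SE 0.45, adjusted p = 2.49e-09).

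Of the miR-200 family, known from epithelia and olfactory neurons, both arms of the miR-141 hairpin were tested and called lower, but 1 library set the level of the main arm. miR-141 stood at 1.63, 2.13 and 1.67 RPM in Cerebellum and at 5.58, 288 and 8.52 RPM in Neocortex, and without Neocortex replicate 2 its log2 change was -1.89 in place of -3.67 (adjusted p = 0.051 in place of 0.00556). With the 6 libraries alone miR-141 was not called (adjusted p = 0.0769).

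The remaining lists showed the following counts, to be read beside 19.5% higher, 36.0% lower and a median of -0.40 over all tested names. In the miR-30 family, 6 of 13 names were higher in cerebellum (median 0.38), with miR-30c at 1400, 1626 and 1631 RPM against 641, 432 and 1311 RPM. In the miR-26 family 2 of 5 were higher (median 0.77), in the miR-34 family 4 of 6 (median 1.94) and among miR-192, miR-194 and miR-215 names 2 of 4 (median 1.73). Among miR-1 and miR-133 names 3 of 5 were higher and 1 lower (median 2.14), and in the whole miR-15/16 list, minor arms included, 6 of 12 were higher and 4 lower (median 0.57), with 2 lower without Cerebellum replicate 2 or without Neocortex replicate 1 or 3. The let-7 list had 10 of 21 names higher and 1 lower (median 0.63), with 6 higher without Cerebellum replicate 1. The 10 include let-7a-1* and let-7c-2*, whose values were nearly the same in every library.

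Other lists leaned the other way or were mixed. Over all tested names 36.0% were lower with a median of -0.40, and the miR-17-92, miR-181 and miR-99/100 lists lay near these values. The 4 arms of the pair miR-221 and miR-222 all passed the test as lower (median -2.23), although miR-221* did not without Cerebellum replicate 1 (adjusted p = 0.0608), Neocortex replicate 2 (0.0544) or Neocortex replicate 3 (0.0704). Of the miR-23/24/27 list, 7 of 11 names were lower (median -0.94). The list of miR-28, miR-708 and miR-151 had 2 of 6 higher and 3 lower (median -0.70), the miR-125 list 1 of 5 higher and 3 lower (median -0.50) and the miR-17-92 clusters, which drive proliferation, 2 of 16 higher and 5 lower (median -0.20). The 5 lower became 3 with the median-ratio factors and without Cerebellum replicate 3 or Neocortex replicate 3, and without Cerebellum replicate 2 or Neocortex replicate 3 the 2 higher became 1. The miR-181 list had 1 of 10 higher and 2 lower (median -0.47, and 0.01 under DESeq2), and the miR-99/100 list 1 of 6 higher and 2 lower (median -0.23, and 0.07 under DESeq2). With the median-ratio factors and with DESeq2 the miR-181 list had 2 higher and 0 lower. In the blood and microglia list the median was -0.19, and 0.07 under DESeq2. The miR-183 cluster had 1 name tested, which was not called.

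The 2 arms of a hairpin were then compared within each library, which asks whether arm use differs apart from the level of the hairpin. Of 118 hairpins, 50 (42.4%) differed in the ratio of the minor to the major arm at an adjusted p under 0.05 in limma, 24 (20.3%) with more of the minor arm in cerebellum and 26 (22.0%) with less, and 54 (45.8%) did not overlap between tissues. On simulated data for these arm ratios 14.7% of calls were false. Without Neocortex replicate 2 the 26 became 16. In 52 hairpins both arms were called in the same direction, in 46 only 1 arm was called, in 17 neither, and in 3 (miR-125a, miR-219 and miR-299) the arms were called in opposite directions. In each of the 3, the call of 1 arm (miR-125a-3p, miR-219-5p and miR-299*) was lost when some single libraries were left out, as given above.

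The sequences of both arms of miR-9 and of miR-132 show how different the seeds are that an arm change supplies.
miR-9: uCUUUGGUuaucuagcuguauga
miR-9*: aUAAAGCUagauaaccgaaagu
miR-132: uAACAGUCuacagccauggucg
miR-132*: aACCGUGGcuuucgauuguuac

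For miR-219, the 5p arm made up 93.9%, 96.2% and 95.1% of reads of both arms in Cerebellum and 15.9%, 18.4% and 16.8% in Neocortex (log2 ratio change 6.43, SE 0.42, adjusted p = 3.22e-09). The 5p arm can come from more than 1 hairpin, so this ratio need not be that of a single precursor. For miR-485 the starred arm made up 95.1%, 93.0% and 100% against 42.7%, 45.3% and 42.2%. miR-378* made up 15.1% ± 1.68 of its hairpin's reads in Cerebellum and 2.3% ± 0.523 in Neocortex (adjusted p = 1.79e-06), with miR-378 itself, a miRNA within the metabolic regulator gene Ppargc1b, at a log2 change of 0.17. let-7i* made up under 1% in all libraries and was more frequent in Cerebellum (0.299% ± 0.0893 against 0.0324% ± 0.0149).

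In the other direction, miR-204* made up 4.66%, 7.97% and 4.64% in Cerebellum and 34.9%, 37.2% and 27.1% in Neocortex (log2 ratio change -3.05, SE 0.35, adjusted p = 3.33e-06). Both arms were higher in cerebellum, miR-204 by more than its partner arm. miR-125a-3p made up 0.793% ± 0.20 against 5.38% ± 0.365, miR-486* 2.01% ± 0.202 against 11.7% ± 1.35 and miR-574-5p 14.4% ± 12.9 against 55.9% ± 9.95. The last rests on few reads in Cerebellum, where 1 library had none of that arm.

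Outside the rule by which hairpins were chosen, and picked after their values were seen, the abundant pair of miR-9 also differed. miR-9* made up 17.1%, 21.7% and 18.9% in Cerebellum and 34.9%, 36.0% and 33.4% in Neocortex (log2 ratio change -1.17, SE 0.22, adjusted p = 0.000339), with no overlap. Its own level was not called, while that of miR-9 was. For miR-132 the starred arm was the more abundant one in every library, and the share of the unstarred arm was 35.1%, 39.1% and 38.0% in Cerebellum and 21.2%, 13.4% and 13.8% in Neocortex (adjusted p = 0.000322). In 9 of 118 hairpins the arm with the higher mean was not the same in both tissues, and 3 of these (miR-350, miR-539 and miR-670) did not pass the test of the arm ratio (adjusted p = 0.165, 0.72 and 0.0897).

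**Figure D5:**
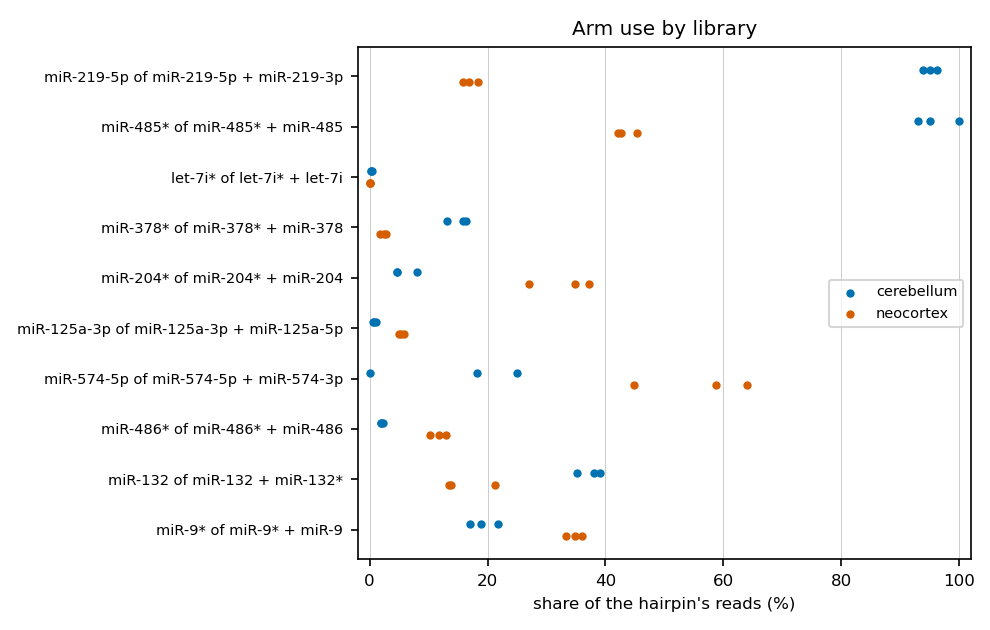
Points give, for each library, the share (%) of the first-named arm in the reads of both arms of its hairpin, for the 8 hairpins of largest change and for miR-132 and miR-9. For miR-219-5p the Cerebellum libraries sit at 93.9% to 96.2% and the Neocortex libraries at 15.9% to 18.4%.

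Names read in all 3 libraries of 1 tissue and in none of the other were few. There were 5 such names in Neocortex and 0 in Cerebellum, and all were low. Detection was unequal: 3 reads over the libraries of a tissue together were 0.475 RPM in Cerebellum and 0.176 RPM in Neocortex. A low name is therefore more easily missed in Cerebellum. miR-218-1* had 5, 10 and 23 reads in the Neocortex libraries (2.33, 2.44 and 2.13 RPM). Its mean was 4.84 times the floor of 3 reads over the Cerebellum libraries together (0.475 RPM). miR-383* (mean 1.20 RPM), miR-135a-1* (1.04 RPM) and miR-141* (0.848 RPM) stood at 2.53, 2.2 and 1.79 times that floor, and miR-1198-3p (0.349 RPM) lay below it. These ratios leave out the counting error of the Neocortex reads. miR-135a-1* rested on 5, 1 and 6 reads and miR-141* on 1, 7 and 4. Neither was called by edgeR on recovered reads (adjusted p = 0.0573 and 0.0656), nor miR-135a-1* by DESeq2 (0.43). Floors cover counting error only.

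The 24 miRNAs of largest change were also read in neuron classes of the same regions, where the precipitation used an anti-myc antibody. Each Purkinje library pooled 3 tissues and each Gad2, PV and SST library 4, while each Camk2a library came from 1. PV and SST had 2 libraries each. These levels are therefore set side by side without a test. The driver line behind each class is not given in the labels. Of the 12 highest in cerebellum, 4 names (miR-133b, miR-133a, miR-486 and miR-3107) were higher in all Purkinje libraries than in all Cerebellum libraries, and the other 8 were lower in all. miR-133b stood at 8326 to 10717 RPM in Purkinje cells and miR-204 at 4.44 to 11.1 RPM. miR-497 (23.1 to 28.0 RPM) and miR-195 (26.6 to 40.2 RPM) were far below whole cerebellum in Purkinje cells, and also below their means in the cortical classes, which ran from 159 to 329 RPM for miR-497 and from 272 to 583 RPM for miR-195.

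Of the 12 lowest in cerebellum, 9 were higher in all Purkinje libraries than in all Cerebellum libraries, such as miR-708 (1261 to 1636 RPM) and miR-139-5p (1892 to 3582 RPM). The other 3 were miR-137 (8.01 to 11.5 RPM), miR-132* (45.9 to 72.1 RPM) and miR-335-5p (30.1 to 31.4 RPM). Among the 4 cortical classes the mean of Camk2a cells, excitatory neurons, was the highest for 7 of the 12, as for miR-137 (5013 RPM) and miR-132* (2290 RPM). For miR-137, alone of the 12, the means of all 4 classes lay below that of whole neocortex (8794 RPM). For miR-1 the highest was that of PV interneurons (2086 RPM) and for miR-139-5p that of SST interneurons (15685 RPM).

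Sequence features of the called names were described by direction for names with a RefSeq sequence. A 5′ U opened 27 of 67 names higher in cerebellum (40.3%), 55 of 163 lower (33.7%) and 46 of 154 not called (29.9%). Median GC content was 45.5%, 47.8% and 47.8% in the same order, and median length was 22 bases in each. Names with an asterisk were 24 of 102 higher, 63 of 188 lower and 103 of 232 not called.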

How the data were processed

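Ago2-bound RNA of 19 to 24 nt from 6 whole-tissue libraries was compared, in the setting of all 19 libraries in 7 groups taken from their titles. Reads were mapped with Bowtie to mm9, per the submitters' processing notes; the Bowtie version and the miRNA annotation are not given in the sources used here. The deposited signal is each library's read count of 528 names scaled by the authors to a common total: columns sum to 10 times the unit that per the file headers they hold, and dividing by 10 gave RPM. Rows with no name (120) held no values. Whole reads were recovered for 100% of values in the 6 libraries (tolerance 0.1 reads), from which depth comes.

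limma 3.58.1 in R 4.3.3 with a trend was fitted to log2(deposited value + 1) of 7 group means, with the contrast Cerebellum minus Neocortex, for names reaching a value of 1 in 2 or more libraries. A fold is 2 to the power of the fitted change, which understates the change of low names. The same fit was used for seed sums and for log2 ratios of arms (pseudocount 0.5 reads, mean of at least 10 reads per arm). Adjustment followed Benjamini and Hochberg, and a result was called under 0.05. edgeR 4.0.16 and DESeq2 1.42.0 were run on the recovered reads as alternatives, where edgeR called 109 names higher and 185 lower. Other alternatives were TMM and median-ratio factors, other pseudocounts and filters, and leaving out each library.

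Named miRNAs were the 12 highest and 12 lowest changes among called names with at least 100 RPM and no overlap, up to 4 called names of at least 10 RPM per list, the 10 most abundant of each tissue, the 6 uncalled names of at least 1000 RPM with the narrowest intervals, names of 24 genomic clusters, names in 1 tissue only, and the seeds and arm ratios of largest change. Names given with values that the rule did not choose singly, some of them members of a seed or hairpin it chose and the others picked after their values were seen, were let-7b, let-7d, let-7i, miR-103, miR-107, miR-129-1-3p, miR-129-2-3p, miR-129-5p, miR-130a, miR-130b, miR-134, miR-138, miR-153, miR-15a, miR-16-1*, miR-195*, miR-218, miR-223, miR-299, miR-299*, miR-29c, miR-301a, miR-30c, miR-34b-3p, miR-350, miR-376a, miR-378, miR-378*, miR-486*, miR-574-5p, miR-670, miR-7a and miR-98, and those in the closing observations. The members and the 25 lists were chosen with earlier results of these data known. Old miRNA names were matched to current RefSeq names by a hand-written table of arms, made after the files were seen and leaving out unsure names. 6 sets of names had identical values and count 1 measurement several times.

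Tests were tried on simulated data. In a first simulation that changed names of any abundance, more calls were false; the changed names were then redrawn outside the 40 most abundant, and the shares given are from that version. Over 523 simulated miRNAs 59% of 2-fold and 95% of 4-fold changes were recovered with 6.7% of calls false, over 317 seeds 73.8% of 2-fold changes with 5.1% false, and over 118 arm ratios 96.7% of 4-fold changes with 14.7% false. The simulated miRNAs changed equally often up and down, while in the data 102 were called higher and 188 lower. Of the 76 names with at least 1000 RPM, 56 were called. The false shares for miRNAs and seeds may therefore be too low for these data. The floors reflect counting error alone, because amplified reads that carry no molecular identifiers do not each stand for 1 molecule.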

Additional observations from a re-analysis of the deposited data

How the results depend on the processing

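All 24 miRNAs of largest change kept their direction and their call in all 16 alternatives (highest adjusted p 0.00554). Over the miRNAs tested in each alternative, called totals ranged from 229 (of the 320 averaging at least 10 RPM) to 311 against 290. Calls fell from 264 in the 6 libraries alone to 234 with the replicate block (76 higher, 158 lower); the numbers do not pair the samples, since same-numbered libraries deviated with correlations of -0.033, 0.01 and 0.039, and samples did not each correlate best with their own number. The replicate block gave 163 called seeds and 30 called arm ratios (13 higher, 17 lower), and a minimum of 50 reads per arm gave 31 (15 and 16). Leaving out 1 library gave 37 to 49 called arm ratios, with 16 to 25 higher and 16 to 24 lower.

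Values near 0 changed sign in some alternatives without a call. With median-ratio factors these were miR-9* (0.06), miR-154 (0.05), miR-101b (0.23), miR-144 (0.04), miR-451 (0.20), miR-106b (0.12), miR-93 (0.20), miR-501-3p (0.06) and miR-532-5p (0.17). With DESeq2 they were miR-9* (0.07), miR-154 (0.04), miR-101b (0.23), miR-144 (0.02), miR-451 (0.12), miR-106b (0.14), miR-93 (0.17), miR-501-3p (0.07) and miR-532-5p (0.17). Leaving out 1 library at a time gave let-7f -0.12 to 0.18, let-7e -0.01 to 0.15, miR-93 -0.33 to 0.08, miR-93* -0.23 to 0.34, miR-181d -0.01 to 0.32 and miR-451 -0.44 to 0.24. The cause was not tested. Depth limits names under about 2.439 RPM, the highest 3-read floor.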

Other observations

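Beyond the names chosen by rule, 21 called miRNAs of at least 1000 RPM remained, 8 higher in cerebellum and 13 lower; those given here were chosen after their values were seen. miR-369-3p, of the Dlk1-Dio3 domain, stood at 1595, 1711 and 1696 RPM in Cerebellum and at 5167, 8818 and 8523 RPM in Neocortex (4.38-fold lower, limma adjusted p = 2.17e-08). miR-674 stood at 417, 505 and 440 RPM against 2052, 1508 and 1403 RPM (3.60-fold lower). miR-130a stood at 2261, 2841 and 2821 RPM against 954, 670 and 710 RPM (3.42-fold higher). In all 3 the tissues did not overlap.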
